A study of Mus musculus with 8 samples.

Results

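Long intergenic noncoding RNAs (lincRNAs) are transcripts with no annotated protein that lie between protein-coding genes. In the deposited isoform table, 6489 isoforms carried the biotype lincRNA, and the 54 isoforms of 12 genes belonging to H19, Meg3, Gas5 and the Snhg host genes were set aside. The remaining 6435 isoforms of 4384 genes, of 122968 isoforms and 49585 genes in all, are described here, with the value of a gene taken as the sum of its lincRNA isoforms. Of these genes, 143 also hold isoforms of another biotype, which are left out of the sum. The biotype is that of the deposited table, and some genes have another type in the later annotation used for positions. RNA-seq was performed on siL-DHX15-LEC, mouse C57BL/6 primary liver endothelial cells immortalized with SV40 in which a lentiviral shRNA, induced by doxycycline through a 3G Tet-On SMARTvector, silences the RNA helicase DHX15, and on wild-type LEC, the same immortalized cells given as untreated. Each condition had 4 libraries, prepared from polyadenylated RNA (500 ng of total RNA, stranded kit) and sequenced in read pairs of 76 bases. The libraries held 77335734 to 149258495 reads recovered from the table in siL-DHX15-LEC and 118830467 to 152045693 in wild-type LEC. The comparison addresses which lincRNAs differed in amount when DHX15 was low. A control carrying the vector with doxycycline but without silencing was not analysed here, and the silenced libraries were run on lanes 5 and 2, those of wild-type LEC on lanes 4 and 1, so silencing, vector, doxycycline and lane cannot be told apart. The study calls the samples of a condition biologically independent, while the labels do not say what was kept separate, such as the culture or the induction.

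Most lincRNAs are spliced, capped and polyadenylated like messenger RNAs, but they are less abundant and many stay in the nucleus. Some act as scaffolds, such as Neat1, on which the nuclear bodies called paraspeckles are built, some mark or regulate the gene beside which they are transcribed, and others are mainly hosts from which a microRNA or a small nucleolar RNA is cut. DHX15 is an RNA helicase that takes the spliceosome apart after splicing and also acts in ribosome assembly.

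Dhx15 itself had 8936, 7956, 8930 and 10051 normalized counts (reads divided by 1 size factor per library) in siL-DHX15-LEC, against 26824, 27952, 26430 and 28006 in wild-type LEC. The difference was -1.61 ± 0.06 on the log2 scale (SE, limma, adjusted p = 3.31e-08), and the 4 silenced libraries were all lower. Of 22 genes that mark endothelial cells, 10 had a mean of at least 10 normalized counts, with Kdr at 743.7 to 799.7 in siL-DHX15-LEC and 682.0 to 815.3 in wild-type LEC. The other 12 had means under 10, with Emcn at 0 in every library, Cdh5 at 4.73 or less and Prox1 at 4.73 to 8.49 in siL-DHX15-LEC and 8.66 to 15.5 in wild-type LEC, so the labelled cell type rested on part of its defining markers. Marker lists of other cells moved with the condition. The 22 tested hepatocyte markers had 20 lower and 1 higher gene (sum over the list of 7203 to 7914 in siL-DHX15-LEC and 10015 to 10733 in wild-type LEC, with Alb at 0 to 1.89 against 521.6 to 658.3). Most of that sum was Trf and Rbp4, without which it was 295.0 to 434.3 in siL-DHX15-LEC and 2176 to 2377 in wild-type LEC, and 12 markers were at 0 in every silenced library and above 0 in every wild-type library. Of 6 tested mesothelial markers 1 was higher and 4 were lower. The mesothelial list summed to 79943 to 87047 in siL-DHX15-LEC and 68623 to 76017 in wild-type LEC, a sum led by Krt19 (46681 to 52351 against 30663 to 36298). Sums of the same kind were, for the stellate and fibroblast list, 47420 to 49025 in siL-DHX15-LEC and 55901 to 56568 in wild-type LEC and, for the macrophage list, 495.5 to 511.1 and 529.5 to 624.3. Their part in the lincRNA results was not tested, and in bulk RNA fewer cells of a type and less RNA per cell cannot be told apart.

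Sequences are shown for those lincRNAs on which the results turn. The first pair, Gm12840 and Gm20186, are nearly identical transcripts of different chromosomes that fell together. Of 628 aligned positions 612 were identical (97.5%), and in the 300 bases printed, from GENCODE M21 on GRCm38, the 6 differing positions are in capitals. The Gm12840 stretch lies in 2 exons at chr4:117700288-117700696 on the plus strand and the Gm20186 stretch in 2 exons at chr6:18846225-18846641 on the minus strand. The longest identical run between them, 134 bases, exceeds the read length of 76 bases, so reads from that run could have come from either gene.
Gm12840: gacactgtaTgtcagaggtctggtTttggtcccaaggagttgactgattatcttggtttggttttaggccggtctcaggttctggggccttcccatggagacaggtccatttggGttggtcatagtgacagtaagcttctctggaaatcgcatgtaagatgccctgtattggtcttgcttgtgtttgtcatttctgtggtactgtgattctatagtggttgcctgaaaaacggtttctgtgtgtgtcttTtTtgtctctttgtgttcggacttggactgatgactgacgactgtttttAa
Gm20186: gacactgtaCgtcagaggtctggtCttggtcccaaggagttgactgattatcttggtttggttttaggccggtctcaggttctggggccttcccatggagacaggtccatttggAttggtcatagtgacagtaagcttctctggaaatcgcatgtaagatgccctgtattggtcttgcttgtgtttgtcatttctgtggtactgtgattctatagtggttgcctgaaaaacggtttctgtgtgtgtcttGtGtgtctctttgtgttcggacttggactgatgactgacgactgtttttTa

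The second pair shows how the 2 main isoforms of Neat1 end, because a library of polyadenylated RNA captures them differently. The last 60 bases of Neat1-002, the short isoform (chr19:5842307-5842366, minus strand), hold the polyadenylation hexamer AATAAA, which is in capitals. The last 60 bases of Neat1-001, the long isoform (chr19:5824708-5824767, minus strand), hold no such hexamer and end in a run of bases rich in A. In mammals this long isoform is known to be ended by RNase P cleavage and to carry no added poly-A tail.
Neat1-002 3′ end: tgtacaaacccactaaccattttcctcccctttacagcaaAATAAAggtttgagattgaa
Neat1-001 3′ end: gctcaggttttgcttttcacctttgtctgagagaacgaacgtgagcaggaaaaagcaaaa
The hexamer AATAAA, searched on the transcript strand in the last 50 bases, was present in 274 of 604 tested lincRNA isoforms with a sequence (45.4%) and in 37.1% of all tested isoforms.

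The third set is the miR-17-92 cluster, the 6 microRNAs cut from the transcript of Mir17hg on the plus strand of chromosome 14, and shows which seeds the host carries. The mature sequences are from RefSeq (GRCm38.p6), with the seed, bases 2 to 8, in capitals. miR-17-5p and miR-20a-5p have the same seed, and so do miR-19a-3p and miR-19b-3p.
mmu-miR-17-5p: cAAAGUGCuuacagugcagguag
mmu-miR-20a-5p: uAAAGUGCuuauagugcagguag
mmu-miR-18a-5p: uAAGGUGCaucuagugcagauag
mmu-miR-19a-3p: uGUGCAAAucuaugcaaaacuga
mmu-miR-19b-3p: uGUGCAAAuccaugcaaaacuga
mmu-miR-92a-3p: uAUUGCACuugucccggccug
Small RNAs of this length were not measured in these libraries, so only the host transcript has a value.

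LincRNAs were sparse in these cells. Of the 4384 genes, 2801 were at 0 in all 8 libraries, 1127 had a mean above 0 and under 10, and 456 had a mean of at least 10 and were tested. Of those, 210 had a mean of at least 50 and 24 a mean of at least 1000. None of the tested genes was at 0 throughout a condition. Among all 4384, 3 genes had no count in any siL-DHX15-LEC library but some in each wild-type library, and 1 gene had the reverse pattern.

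Differential expression was tested with limma on log2(normalized count + 1), two-sided, over all 16489 genes with a mean of at least 10. At an adjusted p of 0.05, 82 of the 456 lincRNA genes (18.0%) differed between conditions (36 higher with silencing, 46 lower), and 374 did not pass. Over all genes tested 33.2% passed, 18.4% higher and 14.8% lower. The median log2 fold change was -0.06 for lincRNA genes and -0.01 for all genes. All 4 siL-DHX15-LEC values lay above all wild-type values in 40 lincRNA genes and below them in 46, against 30.8% of all genes for both directions. At an unadjusted p under 0.05 there were 120 lincRNA genes (26.3%), against 43.7% of all genes. The log2 fold changes of the 82 ran from -1.73 to 1.65, with a median size of 0.52, against 0.26 for all genes that passed. Those 2 medians were not matched for abundance. Among genes that passed, the median size was 1.42 for lincRNA and 1.11 for protein-coding genes at a mean of 10 to 20. The same pairs were 0.82 and 0.81 at 20 to 50, and 0.53 and 0.61 at 50 to 100. At 100 to 500 they were 0.37 and 0.43, and at 500 or more 0.31 and 0.22. Rescaling every library to the same total gave a split of 26 higher and 61 lower, where the median of all genes was itself -0.08.

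The lower share of lincRNA genes that passed went with lower abundance. Tested lincRNA genes had a median of 39.7 normalized counts and a median SE of 0.19, against 1717 normalized counts and 0.06 for all genes. Among genes with a mean of 10 to 20, 8.33% of 120 lincRNA genes and 11.7% of 557 protein-coding genes passed. At 20 to 50 the shares were 9.52% of 126 and 19.6% of 767, at 50 to 100 20% of 70 and 27.7% of 585, and at 100 to 500 28.9% of 97 and 36.6% of 1496. At 500 or more, 41.9% of 43 lincRNA genes and 40.5% of 10146 protein-coding genes passed. The shares therefore lay closest together among the most abundant genes and furthest apart, relative to their size, at 20 to 50.

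**Figure D1:**
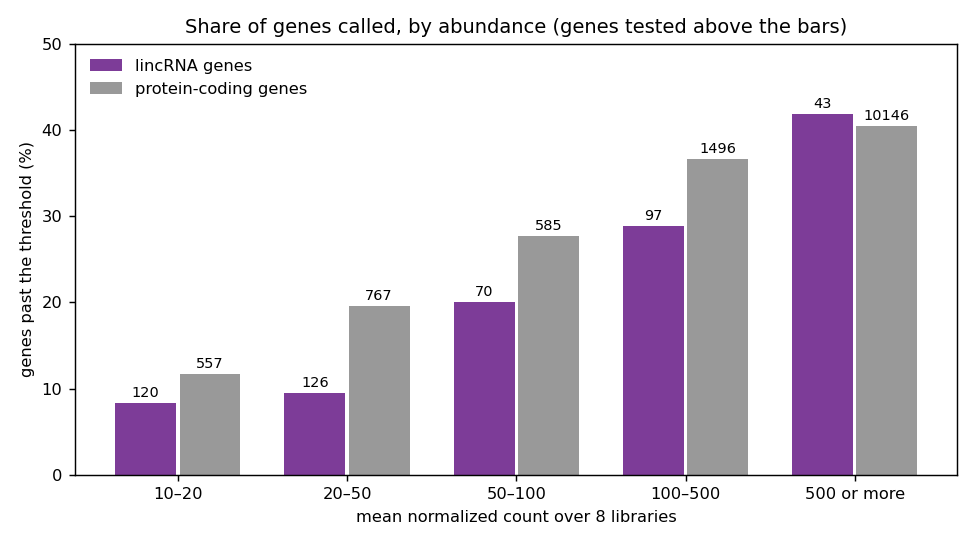
Share of genes past an adjusted p of 0.05 (y axis, percent) by mean normalized count over 8 libraries (x axis), for lincRNA genes and protein-coding genes, with the number tested above each bar. The share of lincRNA genes runs from 8.33% at 10 to 20 normalized counts to 41.9% at 500 or more.

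**Figure D2:**
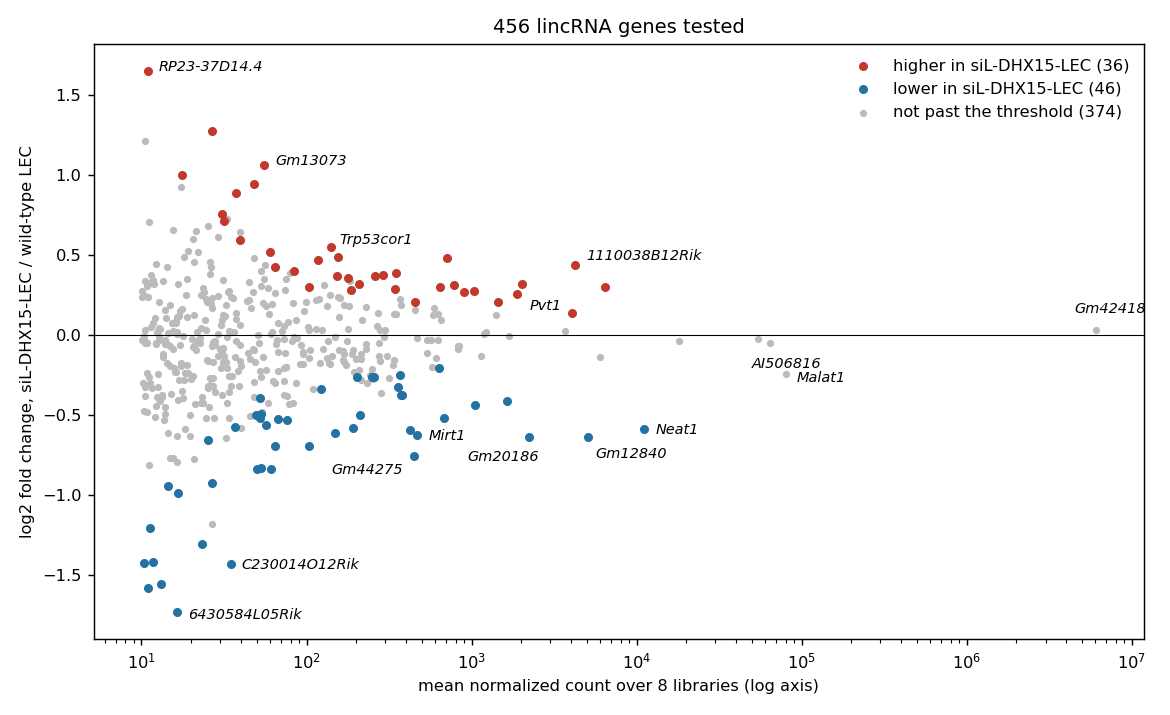
Log2 fold change, siL-DHX15-LEC over wild-type LEC (y axis), against the mean normalized count over 8 libraries on a log axis (x axis) for the 456 tested lincRNA genes. Red points are the 36 genes that were higher, blue points the 46 that were lower and grey points the 374 that did not pass; changes beyond 2-fold sit at low counts, while Malat1, AI506816 and Gm42418 at the right did not pass.

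The lincRNA share of each library was set by a single gene. Gm42418, which overlaps ribosomal RNA sequence on chromosome 17, held 94.95% of all lincRNA normalized counts, and the next 5 genes held 70.8% of the rest. LincRNAs took 5.04%, 4.47%, 5.12% and 4.82% of the normalized counts in siL-DHX15-LEC, against 5.10%, 3.39%, 5.79% and 6.30% in wild-type LEC. The siL-DHX15-LEC values lay inside the wild-type range (4.86% ± 0.29 against 5.15% ± 1.27, SD, n = 4 each, exact two-sided permutation p = 0.743). Gm42418 and its neighbour Gm26917, which overlaps ribosomal RNA as well, did not pass, with log2 fold changes of 0.03 ± 0.17 and -0.03 ± 0.11 (SE).

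Without those 2 genes lincRNAs took 0.194%, 0.182%, 0.201% and 0.211% in siL-DHX15-LEC, against 0.206%, 0.233%, 0.233% and 0.226% in wild-type LEC. One wild-type library lay below the highest siL-DHX15-LEC library (difference of means -0.0275 percentage points, exact permutation p = 0.0571). Leaving out Malat1 as well, a step not planned beforehand, gave 0.139%, 0.139%, 0.140% and 0.145% in siL-DHX15-LEC, against 0.151%, 0.159%, 0.157% and 0.151% in wild-type LEC. The conditions then did not overlap (0.141% ± 0.003 against 0.155% ± 0.004, SD, n = 4 each, exact permutation p = 0.0286, the smallest that 4 against 4 allows). Abundant genes are part of this sum, such as Neat1, Gm12840 and Gm20186, which fell, and C330006A16Rik and 1110038B12Rik, which rose. Whether the lower share extends beyond a few abundant genes was not tested. The normalized totals by which these shares are divided differed too. They were 1.29e+08 to 1.31e+08 in siL-DHX15-LEC and 1.21e+08 to 1.27e+08 in wild-type LEC, so the lower share is not only one of fewer lincRNA counts.

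AI506816, Gm26917 and Malat1 followed Gm42418 by level, with 22930, 16380 and 11500 normalized counts per kilobase of the longest isoform, and none of them passed. AI506816 had 63278, 62991, 62844 and 63403 normalized counts in siL-DHX15-LEC, against 68779, 62616, 66324 and 64059 in wild-type LEC (log2 fold change -0.05 ± 0.04, limma adjusted p = 0.301). Malat1, the abundant RNA of nuclear speckles, had 72073, 56955, 79497 and 85752 in siL-DHX15-LEC, against 70317, 88865, 94313 and 94573 in wild-type LEC. Its conditions overlapped (-0.25 ± 0.12, adjusted p = 0.134), and of 18 alternatives it passed under 2, without siL-DHX15-LEC replicate 4 and without wild-type replicate 1. RP24-286J21.7, with 17234 to 18151 normalized counts in siL-DHX15-LEC and 17684 to 18914 in wild-type LEC, also did not pass.

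Neat1 fell. It had 8766, 8001, 9391 and 9388 normalized counts in siL-DHX15-LEC, against 11916, 14595, 14222 and 12851 in wild-type LEC. All silenced libraries were lower than all wild-type libraries (log2 fold change -0.59 ± 0.07, limma adjusted p = 0.000128). The short isoform Neat1-002 had 5651, 5342, 6198 and 6186 in siL-DHX15-LEC, against 8853, 10883, 10314 and 9075 in wild-type LEC (-0.74 ± 0.08, adjusted p = 0.00155 over all isoforms). The long isoform Neat1-001, whose presence is needed for paraspeckles in mouse and human cells, had 2922, 2439, 2997 and 2998 in siL-DHX15-LEC, against 2881, 3329, 3636 and 3514 in wild-type LEC, which overlapped (-0.23 ± 0.09, adjusted p = 0.152). The share of Neat1-002 in the gene was 65.8% ± 0.96 in siL-DHX15-LEC and 73.0% ± 1.83 in wild-type LEC (SD, n = 4 each), and that of Neat1-001 was 31.9% ± 1.16 and 24.97% ± 1.94. Isoform usage of Neat1 passed the diffSplice test of limma (adjusted p = 0.0228). Both isoforms share their start, so their reads there were divided by estimation.

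Of 32 tested genes of paraspeckle proteins, 10 were higher and 3 lower in RNA with silencing (median log2 fold change 0.07), which is 31.2% and 9.38%, against 21.5% and 15.7% of protein-coding genes. The list had a median of 19820 normalized counts, and protein-coding genes with a mean of at least 500 gave 25.6% and 14.9%. Genes of the list with the smallest p were Ewsr1 (0.35) and Taf15 (0.60), RNA-binding proteins of the FET family, Pspc1 (-0.53), a core paraspeckle protein, the helicase Ruvbl2 (0.32) and Rbmx (0.19). Pspc1 had 3757, 3700, 3979 and 4618 normalized counts in siL-DHX15-LEC, against 6036, 5691, 5386 and 6071 in wild-type LEC, with no overlap. Of 25 tested genes of nuclear RNA decay, which trims and degrades many lincRNAs, 6 were higher and 2 lower (median 0.01), 32% in all, against 37.2% of protein-coding genes.

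Gm12840 and Gm20186, the nearly identical pair printed above, fell by the same amount. Gm12840 had 3318, 3988, 4194 and 4435 normalized counts in siL-DHX15-LEC, against 6693, 5854, 5833 and 6331 in wild-type LEC (log2 fold change -0.64 ± 0.08, limma adjusted p = 0.000197). Gm20186 had 1474, 1745, 1804 and 1905 in siL-DHX15-LEC, against 2883, 2532, 2573 and 2796 in wild-type LEC (-0.64 ± 0.08, adjusted p = 0.000135). In both genes the conditions lay apart. They are uncertain as separate results, since 59.8% of the 31-base words of Gm12840 occur in another tested gene, and 34.2% of those of Gm20186. Gm26809, which overlaps Gm20186 by 1451 bases on the opposite strand, fell as well (-0.70 ± 0.14), with 44.2 to 52.6 normalized counts in siL-DHX15-LEC and 69.9 to 95.8 in wild-type LEC. Whether the counting used strand is not given in the sources used here, so reads of an overlapping pair on opposite strands cannot be told apart. The nearest tested protein-coding genes did not pass, Dmap1 at 0.06 beside Gm12840 and Lsm8 at -0.12 beside the other 2.

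The largest falls at a mean of at least 50 with no overlap were those of Gm44514 and Gm19705 (log2 fold change -0.84 each), of little known role. Gm44275 had 290.3, 339.2, 330.0 and 372.8 normalized counts in siL-DHX15-LEC, against 606.8, 513.6, 530.5 and 606.7 in wild-type LEC (-0.76 ± 0.09, limma adjusted p = 0.000138). Mirt1, named for its rise after myocardial infarction in mouse, had 319.2, 371.9, 366.0 and 418.2 in siL-DHX15-LEC, against 638.8, 532.7, 548.2 and 555.6 in wild-type LEC (-0.63 ± 0.09, adjusted p = 0.000428). Both genes were lower in all 4 silenced libraries, as the rule for naming falls required. Both main isoforms of Mirt1 were lower, with log2 fold changes of -0.79 for Mirt1-202 and -0.52 for Mirt1-201 (adjusted p = 0.00665 and 0.0228 over all isoforms). Mirt1 overlaps the lincRNA 4833407H14Rik by 2102 bases on the opposite strand, which had a log2 fold change of -0.62. The remaining falls by this rule were Gm26582 (-0.83), Gm43597 (-0.70) and 3930402G23Rik (-0.61). Gm26582 overlaps exons of Cdkl2 and G3bp2 on the opposite strand, and Cdkl2 itself fell (-0.48).

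The microRNA host Mir17hg had 443.2, 516.7, 586.3 and 707.7 normalized counts in siL-DHX15-LEC, against 620.2, 853.4, 925.2 and 824.8 in wild-type LEC. It was lower (log2 fold change -0.52 ± 0.14, limma adjusted p = 0.0170), but the conditions overlapped, and the call was lost without siL-DHX15-LEC replicate 1 or wild-type replicate 3 and in limma without the variance trend. Across the 17 tested lincRNA genes that host a microRNA, 1 was higher and 2 were lower (17.6%, against 18.0% of all lincRNA genes tested), and Mir155hg, the host of miR-155 (71.5 to 134.1 against 89.8 to 123.0 normalized counts), did not pass.

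Other abundant lincRNAs, named after their values were seen, also moved but overlapped between conditions. B230354K17Rik had 1413, 1146, 1402 and 1716 normalized counts in siL-DHX15-LEC, against 1688, 2012, 1873 and 1935 in wild-type LEC (-0.41 ± 0.10, limma adjusted p = 0.00894). RP24-122D14.3 had 954.2, 815.3, 828.6 and 841.1 in siL-DHX15-LEC, against 632.6, 862.1, 678.8 and 624.0 in wild-type LEC (0.31 ± 0.10, adjusted p = 0.0313). In each, 1 library of one condition lay among those of the other.

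**Figure D3:**
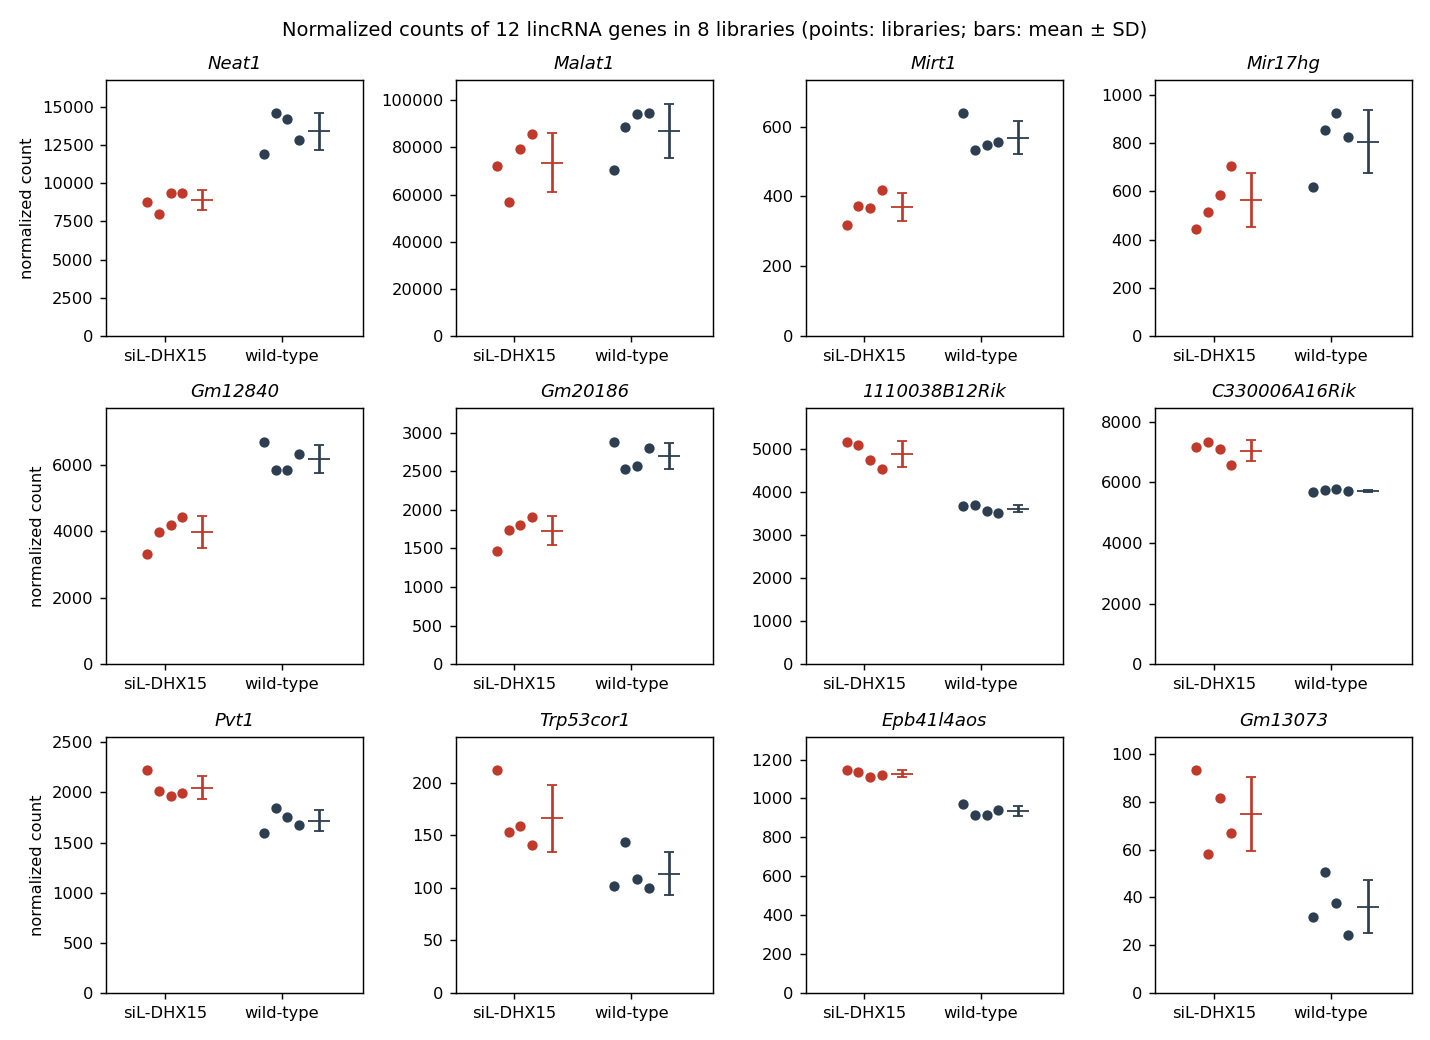
Normalized counts (y axis, starting at 0) of 12 lincRNA genes in the 4 siL-DHX15-LEC libraries (left, red) and the 4 wild-type libraries (right, dark) in the order of the replicates, with the mean ± SD as a bar. Neat1, Mirt1, Gm12840 and Gm20186 were lower in every silenced library, 1110038B12Rik, C330006A16Rik, Pvt1, Epb41l4aos and Gm13073 were higher in every one, and Malat1, Mir17hg and Trp53cor1 overlapped.

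Among the rises, 1110038B12Rik had the smallest p. The gene lies at chr17:34950238-34952471 on the minus strand (GRCm38) and carries Snord52, a guide RNA for the methylation of ribosomal RNA, in an intron. Its value leaves out isoforms annotated as retained introns, whose log2 fold changes were -0.16 to -0.35. The sum of its lincRNA isoforms was 5163, 5089, 4745 and 4525 normalized counts in siL-DHX15-LEC, against 3669, 3689, 3557 and 3515 in wild-type LEC (log2 fold change 0.43 ± 0.05, limma adjusted p = 8.62e-05), with no overlap. Hspa1b, an inducible heat shock protein gene 3965 bases away on the same strand, moved the other way (-0.36). Of 10 tested lincRNA genes that host a small nucleolar or Cajal body RNA, 2 were higher and 1 was lower, which is 30% of few genes, against 18.0% of all lincRNA genes tested.

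C330006A16Rik had 7175, 7343, 7112 and 6565 normalized counts in siL-DHX15-LEC, against 5686, 5733, 5774 and 5712 in wild-type LEC (0.30 ± 0.04, limma adjusted p = 0.000289). Epb41l4aos, a neighbour of Epb41l4a on the opposite strand that hosts a small nucleolar RNA, had 1146, 1135, 1109 and 1122 in siL-DHX15-LEC, against 973.6, 915.3, 915.8 and 939.9 in wild-type LEC (0.27 ± 0.05, adjusted p = 0.00147). Each silenced library was above each wild-type library in both genes.

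The rise of largest fold at a mean of at least 50 was that of Gm13073, with 93.4, 58.3, 81.6 and 67.2 normalized counts in siL-DHX15-LEC, against 31.9, 50.8, 37.6 and 24.2 in wild-type LEC (1.06 ± 0.22, limma adjusted p = 0.00417). Slc25a33, a mitochondrial pyrimidine nucleotide carrier gene 5747 bases away on the same strand, was higher too (0.43). Smaller rises that also did not overlap were those of 4930461G14Rik (0.49), Gpr137b-ps (0.48), BC051077 (0.47), Gm4419 (0.42), 2810414N06Rik (0.40), Gm7160 (0.39), 4632404H12Rik (0.37) and C920006O11Rik (0.37). The calls of 2810414N06Rik, Gm4419, C920006O11Rik and BC051077 were lost under 9, 8, 7 and 3 of 18 alternatives. Gpr137b-ps is uncertain, since 24.3% of its 31-base words occur in another tested gene, mostly in Gpr137b (22.6%).

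The lincRNAs with known roles were described from lists of nuclear bodies, X inactivation, p53, imprinting, development and vessels, stress and inflammation, and ribosomal RNA overlap. Of their 22 tested genes, 3 were higher, 3 were lower and 16 did not pass, with a median log2 fold change of -0.05. Of all 456 lincRNA genes tested, 36 were higher and 46 lower (18.0%), with a median of -0.06. The single lists hold few genes, and their counts were not tested against that share. The 4 tested lincRNAs linked to p53 gave 2 of the rises, Trp53cor1 and Pvt1, and 1 of the falls, Neat1, which p53 induces. The stress and inflammation list had 1 higher, Epb41l4aos, and 1 lower, Mir17hg, of 6, and the development and vessel list 1 lower, Mirt1, of 4. None of the 2 tested genes each of the X inactivation, imprinting and ribosomal RNA lists passed. Trp53cor1 (lincRNA-p21), a transcriptional target of p53 beside Cdkn1a, had 212.2, 152.8, 158.9 and 141.0 normalized counts in siL-DHX15-LEC, against 102.0, 143.7, 108.6 and 99.5 in wild-type LEC. It was higher (0.55 ± 0.15, limma adjusted p = 0.0171), although 1 wild-type library lay above the lowest silenced library, and the call was lost without wild-type replicate 4. Cdkn1a, the p21 inhibitor of cyclin-dependent kinases that lies 11797 bases away on the opposite strand, had 5046, 5235, 5210 and 4706 in siL-DHX15-LEC, against 3909, 3604, 3738 and 3607 in wild-type LEC (0.44 ± 0.05, adjusted p = 6.67e-05).

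Pvt1, a lincRNA downstream of the growth regulator Myc, had 2223, 2012, 1963 and 1995 normalized counts in siL-DHX15-LEC, against 1599, 1849, 1751 and 1678 in wild-type LEC (0.25 ± 0.06, limma adjusted p = 0.00628). Myc, 47612 bases away on the same strand, had 28175, 27378, 26105 and 25154 in siL-DHX15-LEC, against 21672, 22207, 20542 and 20029 in wild-type LEC (0.34 ± 0.05, adjusted p = 0.000293). Neither gene overlapped between conditions. Isoforms of Pvt1 differed in size of change. Pvt1-004 had 646.9, 552.0, 468.7 and 497.6 in siL-DHX15-LEC, against 336.9, 369.9, 366.5 and 360.0 in wild-type LEC (0.58 ± 0.11, adjusted p = 0.0114 over all isoforms). Pvt1-008, singled out after its values were seen, had 117.2, 53, 122.9 and 28.4 in siL-DHX15-LEC, against 0, 4.76, 0 and 0 in wild-type LEC (adjusted p = 0.00357). It was too small a part of the gene for the usage test, in which 4 other isoforms of Pvt1 did not pass (diffSplice adjusted p = 0.144).

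Other listed lincRNAs did not pass. Jpx and Ftx, which lie in the X inactivation centre, had log2 fold changes of -0.18 ± 0.13 and -0.03 ± 0.12 (SE). Rian and Mirg, of the imprinted Dlk1-Dio3 cluster, had 0.17 ± 0.07 (limma adjusted p = 0.0699) and -0.14 ± 0.14. Bvht, required for cardiac commitment of mouse cells, had 258.3 to 317.1 normalized counts in siL-DHX15-LEC and 239.1 to 270.9 in wild-type LEC. Crnde had 0.23 ± 0.09 (adjusted p = 0.0882), Miat -0.52 ± 0.26 (0.140), Lncpint, a p53 target, -0.06 ± 0.30 and Lncenc1 0.00 ± 0.15. Dancr, which blocks differentiation of human epidermal progenitors, is listed under 2 gene IDs, with -0.01 ± 0.08 and -0.18 ± 0.13. Since 90.1% of the 31-base words of the first occur in the second, its reads could have been divided between them.

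Isoforms were tested at an adjusted p of 0.001, the threshold used for isoforms in the study. Of 609 tested lincRNA isoforms 0 passed in limma, against 0.287% of all 50198 isoforms, and 102 had an unadjusted p under 0.05 (16.7%, against 25.4% of all isoforms). At the same threshold 0 passed in edgeR, against 0.271% of all isoforms, and 17 in DESeq2, against 7.2%. At an adjusted p of 0.05, 33 passed (5.42%), 15 higher and 18 lower, against 10.4% of all isoforms (6.61% higher and 3.83% lower). Among the 274 lincRNA isoforms with AATAAA near their end 13 were higher and 6 lower at 0.05, and among the 330 without it 2 were higher and 12 lower. The isoforms that are not lincRNAs gave 1695 higher and 1066 lower of 18285 with the hexamer, and 1600 higher and 835 lower of 31085 without it.

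Isoform usage, the share of each isoform in its gene, was tested in 96 lincRNA genes, of which 7 passed at an adjusted p of 0.05, against 16.5% of all genes tested. Shares are of all isoforms of a gene, whatever their biotype. Where a gene holds other biotypes, they are parts of a larger sum than the gene value given above. The gene with the smallest p was 5430416N02Rik (diffSplice adjusted p = 0.000316). Its isoform 5430416N02Rik-001 had 1382, 1363, 1183 and 1297 normalized counts in siL-DHX15-LEC, against 711.9, 944.7, 773.8 and 751.2 in wild-type LEC (log2 fold change 0.72 ± 0.10, adjusted p = 0.00340 over all isoforms). Its other main isoform, 5430416N02Rik-002, had 894.8, 800.2, 901.4 and 895.0 in siL-DHX15-LEC, against 922.1, 918.5, 978.4 and 936.4 in wild-type LEC (-0.11 ± 0.06, adjusted p = 0.328). The share of the first was 58.4% ± 2.36 in siL-DHX15-LEC and 44.1% ± 3.39 in wild-type LEC (SD, n = 4 each), and the gene as a whole was higher (0.31 ± 0.05).

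In 1110038B12Rik (diffSplice adjusted p = 0.00352) the spliced isoforms -001 and -002 took 47.1% ± 1.95 and 26.7% ± 0.85 of the gene in siL-DHX15-LEC, against 40.5% ± 2.81 and 23.3% ± 1.14 in wild-type LEC. Both were higher, by 0.47 and 0.45 on the log2 scale. Its 5 isoforms annotated as retained introns had log2 fold changes of -0.16 to -0.35. In amount, none of them passed at 0.05 over all isoforms. In usage, 1110038B12Rik-007 and 1110038B12Rik-003 were lower and passed (diffSplice adjusted p = 0.0283 and 0.0366 per isoform). The usage of 1110038B12Rik-005 did not pass (0.0851), and the remaining retained introns were not in the usage test. In 4930523C07Rik, which as a gene did not differ, the minor isoform -002 took 11.4% ± 1.31 of the gene in siL-DHX15-LEC and 8.81% ± 0.48 in wild-type LEC, and the main isoform -001 79.9% ± 1.03 and 82.9% ± 1.10 (SD, n = 4 each). The remaining genes past the usage threshold were B230208H11Rik, 1500004A13Rik and A430110L20Rik, in which the isoforms B230208H11Rik-201, 1500004A13Rik-007 and A430110L20Rik-001 had few reads. A430110L20Rik-001 had 0, 10.6, 0 and 15.1 normalized counts in siL-DHX15-LEC, against 12.4, 33.3, 35.5 and 14.7 in wild-type LEC.

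**Figure D4:**
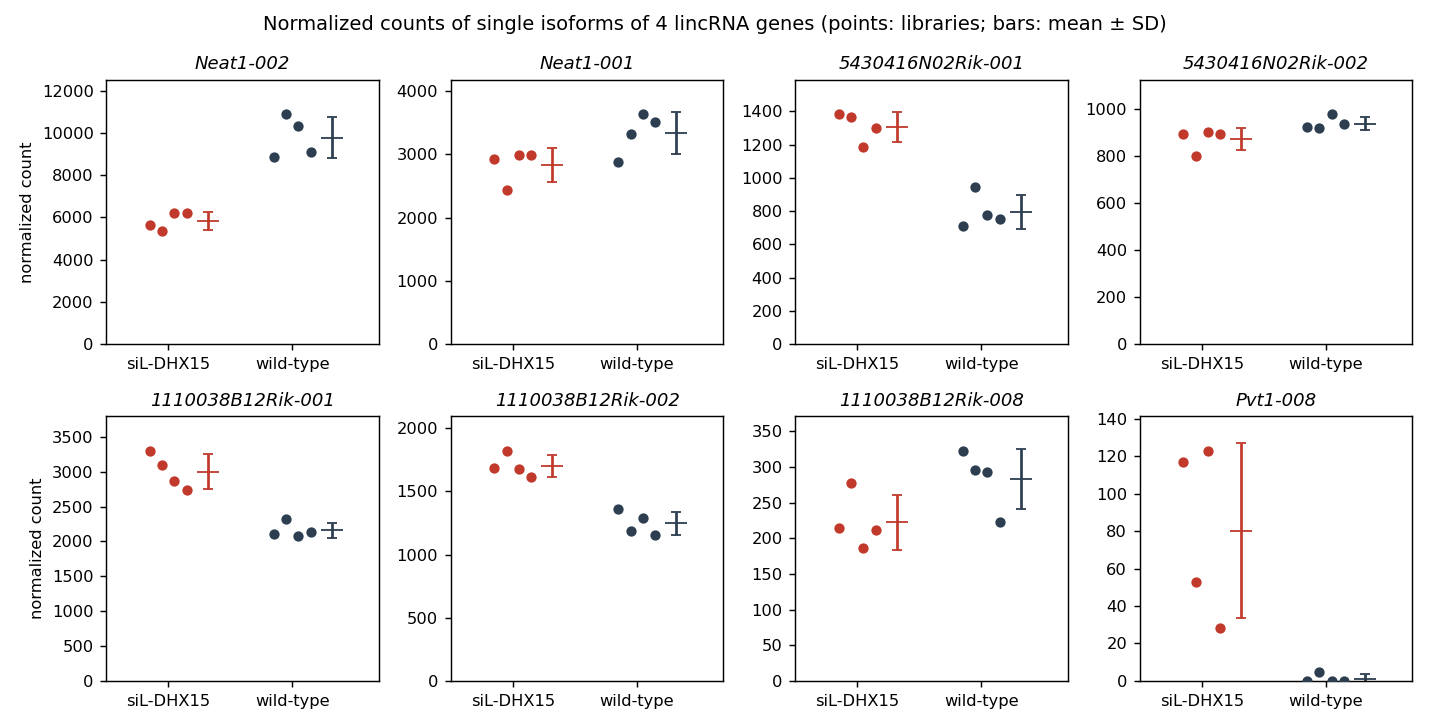
Normalized counts (y axis) of isoforms of lincRNA genes named in the text, in the siL-DHX15-LEC libraries (left, red) and the wild-type libraries (right, dark), with mean ± SD. Neat1-002 was lower in every silenced library while Neat1-001 overlapped, and 5430416N02Rik-001, 1110038B12Rik-001, 1110038B12Rik-002 and Pvt1-008 were higher in every silenced library.

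Changes of at least 2-fold were found in 11 of the 82 lincRNA genes, 8 lower and 3 higher. All but Gm13073 had a mean under 50, where counts are low. Over all genes, 175 of the 5478 that passed changed as much. At a mean of 10 to 20 these were 7 of 120 lincRNA genes and 41 of 557 protein-coding genes. At 20 to 50 they were 3 of 126 and 42 of 767, and at 50 to 100 1 of 70 and 15 of 585. Protein-coding genes that passed were 18 higher and 47 lower at 10 to 20, and 50 higher and 100 lower at 20 to 50. The 11 lincRNA genes were named after their values were seen. The largest fall was that of 6430584L05Rik, with 1.7, 9.72, 6.14 and 15.1 normalized counts in siL-DHX15-LEC, against 24.7, 24.6, 18.8 and 30.3 in wild-type LEC (log2 fold change -1.73 ± 0.46). C230014O12Rik had 15.3, 22.1, 18.4 and 17.03 in siL-DHX15-LEC, against 51.5, 36.5, 56.4 and 60.6 in wild-type LEC (-1.43 ± 0.20), and was the most abundant of the 8. The other falls were Gm19569, RP24-362F17.1, Gm15892, Gm42788, Gm29650 and Fmr1os (-1.58 to -1.21). RP23-37D14.4 had 15.3, 16.8, 14.9 and 19.9 in siL-DHX15-LEC, against 8.24, 5.56, 2.09 and 4.33 in wild-type LEC (1.65 ± 0.35), and 1810008I18Rik had a log2 fold change of 1.27 ± 0.35.

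The surroundings of the lincRNA genes were read from GENCODE M21, in which 449 of the 456 had a position. In that release 356 of them had the gene type lincRNA and 93 another type, such as processed transcript (39) and antisense (29). A tested protein-coding gene was overlapped by 118. Among genes named here, 4930523C07Rik was protein-coding there, Gm4419 antisense and Gpr137b-ps a transcribed pseudogene. Of the 82 lincRNA genes that passed, 41 had a nearest tested protein-coding gene that passed as well, and in 32 of these (78.0%) both moved the same way, 13 higher and 19 lower. Among lincRNA genes that did not pass, the nearest gene was higher in 90, lower in 57 and did not pass in 220. Of 5025 protein-coding genes that passed, 1923 had a nearest protein-coding gene that passed as well. In 1097 of these (57.0%) both moved the same way. Leaving out genes that overlap, whose reads could be shared, the same direction was found in 26 of 34 lincRNA genes (76.5%) and in 56.4% for protein-coding genes. The 2 kinds of gene were not matched for distance. The median gap to the nearest gene was 1069 bases for lincRNA genes and 3580 for protein-coding genes, and 4931 and 7618 without overlaps. Single gaps could be far wider, such as 1726125 bases between Mir17hg and Tpm3-rs7, which were both lower. Same-direction pairs lay 16 times on the same strand and 16 times on opposite strands. Where the lincRNA and its neighbour start within 2000 bases of each other on opposite strands, 3 of 6 moved the same way. These shares are descriptions and were not tested.

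Examples with higher values of both genes were Pvt1 with Myc, Trp53cor1 with Cdkn1a, Gm13073 with Slc25a33, BC051077 with Vsig10 (0.19, 3438 bases away) and 4930461G14Rik with 6030419C18Rik (0.30, 18968 bases away). Lower pairs were Gm19705 with Zfp281 (-0.44, 40716 bases away), Gm44275 with Pbp2 (-0.38, 1750 bases), Mirt1 with Smndc1 (-0.14, 52652 bases) and 3930402G23Rik with Irs2 (-0.27, 55985 bases), the insulin receptor substrate gene. In 2810414N06Rik with Edem3 (-0.31), 1110038B12Rik with Hspa1b and C330006A16Rik with Nacc2 (-0.23) the lincRNA was higher and its neighbour lower. The neighbours Bcl7c, N4bp2l2, Ube2q1, Zcchc2, Ywhaq, Ick and Ero1lb did not pass, with log2 fold changes of -0.10 to 0.14.

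**Figure D5:**
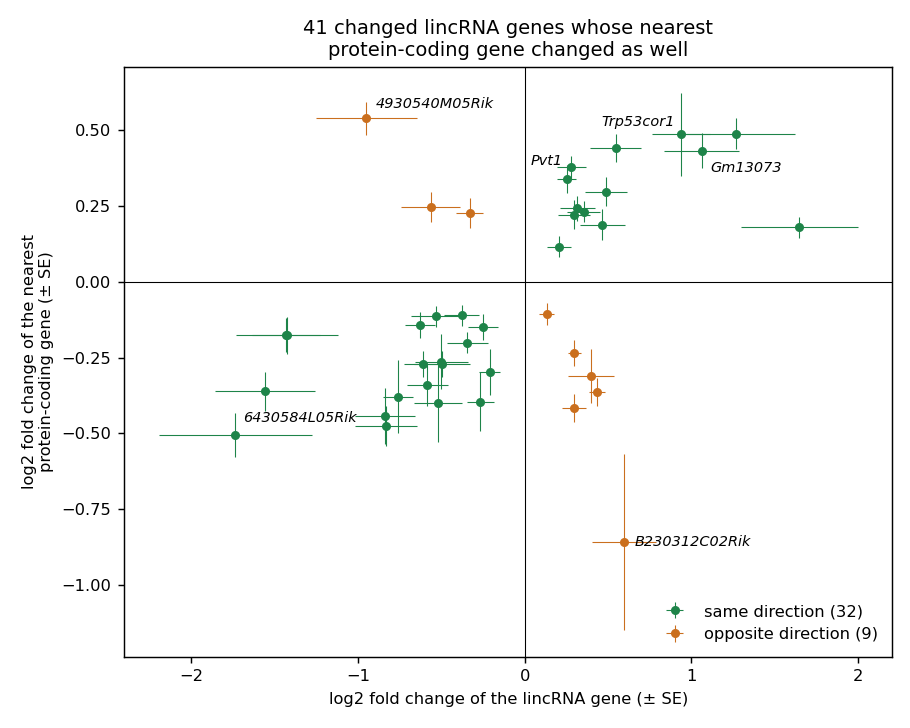
Log2 fold change, siL-DHX15-LEC over wild-type LEC, of a lincRNA gene (x axis) and of its nearest tested protein-coding gene (y axis) with SE bars, for the 41 pairs in which both passed. The 32 green points lie in the quadrants of equal direction and the 9 orange points in those of opposite direction.

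The median change of lincRNA genes showed a gradient with length, which was not tested. From the shortest to the longest of 4 equal classes of lincRNA genes by their longest isoform (bounds of 1112, 1891 and 3039 bases), the median log2 fold change was 0.02, -0.06, -0.11 and -0.14. The numbers higher and lower were 11 and 7, 9 and 8, 6 and 16, and 10 and 15. Protein-coding genes in the same length classes had medians of 0.06, 0.03, 0.03 and -0.01. Their numbers higher and lower were 218 and 56 of 803, 408 and 202 of 1739, 793 and 425 of 3292, and 1497 and 1437 of 7699. Abundance of the lincRNA genes differed between the classes too, with medians of 33.2, 33.9, 47.6 and 73.15 normalized counts. Exon number showed no such order, with 19.2% of 73 lincRNA genes with 1 exon, 14.7% of 190 with 2 and 21.1% of 190 with 3 or more past the threshold. For 34 lincRNA genes the nearest tested protein-coding gene lay upstream on the same strand, overlapping or at most 5000 bases away. Each began after the start of that gene and ended past its end. Of these 34 lincRNA genes 4 were higher and 6 lower (29.4%, against 18.0% of all lincRNA genes tested). Reads running past the end of a protein-coding gene could fall into these, which was not tested.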

How the data were processed

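RNA was sequenced from 4 siL-DHX15-LEC and 4 wild-type LEC libraries. Alignment by the authors was to GRCm38 (STAR 2.5.2a), isoforms were quantified on GENCODE M12 (RSEM 1.2.28), and size factors of DESeq2 1.18 scaled the read counts, so the deposited values are a signal, the normalized count of an isoform in a library. In each library 100% of the values were whole multiples, within 0.1, of the normalized count of 1 read (0.794 to 1.698), and division gave whole reads recovered. Percent values of mapping were deposited as the sequencing center computed them and served only to look at the libraries (unique pairs 61.0% to 63.7%). Replicates differed by more than counting noise, with a mean chi-square of 7.58 to 102.8 a gene. Such a mean can be swayed by genes with very many reads, such as Gm42418, and does not describe a typical gene.

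Genes were sums of isoforms. Those whose mean was at least 10 entered limma 3.58.1 in R 4.3.3, on log2(normalized count + 1) and with a variance trend, with Benjamini-Hochberg adjustment over all genes (0.05) or isoforms (0.001); a fold change on this scale understates that of genes with low values. Usage was tested with diffSplice and a Simes test per gene, over isoforms with a mean of at least 10 and 5% of their gene, and shares of a library with an exact two-sided permutation test over 70 assignments. Positions, lengths and sequences came from GENCODE M21 and microRNAs from RefSeq. Alternatives used edgeR 4.0.16, DESeq2 1.42.0, other pseudocounts, filters and scalings, and leaving out each library. The gene fits and the usage test were checked on simulated data, while the isoform fit and the permutation test were not.

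The genes named were Dhx15, the 10 lincRNAs with the highest value per kilobase, the 10 largest rises and falls (mean at least 50, conditions apart) with their nearest protein-coding genes, the tested lincRNAs of the role lists, isoforms past the thresholds, and 5 paraspeckle genes with the smallest p. Isoforms of Pvt1 and Mirt1, genes changed 2-fold, neighbours of other lincRNAs, 4833407H14Rik, Alb and the endothelial markers given with values were named outside this rule after their values were seen. The members and lists were chosen with earlier results of these data known.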

Additional observations from a re-analysis of the deposited data

Results flagged for a closer look

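In wild-type LEC, replicate 1 stood apart for Rian, an imprinted lincRNA of the Dlk1-Dio3 cluster. It had 538.8 normalized counts, and the other wild-type libraries had 562.8 to 567.8. Dixon's ratio of the gap to the range was 0.83, just over the critical value for 4 samples. This was 1 of 102 groups of 4 libraries examined, of which chance passes about 1 in 20.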

How the results depend on the processing

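Counts of changed lincRNA genes stayed within 1.5 times the 82 under all alternatives, at 62 to 87 (79 in edgeR, 69 in DESeq2, 87 at equal totals, 73 of 1583 genes with no filter, of which 54 were among the 82), and at 55 (without wild-type replicate 3) to 91 (without siL-DHX15-LEC replicate 4) when a library was left out. Leaving out a library gave 24 to 33 higher and 30 to 58 lower genes, the 30 without siL-DHX15-LEC replicate 2. The part of calls that were higher was 43.9%, 29.9% at equal totals and 36.3% without siL-DHX15-LEC replicate 4. Genes with changed usage numbered 4 at a mean of at least 50 and 4 (without siL-DHX15-LEC replicate 1) to 10 (without wild-type replicate 1) when a library was left out. Changed isoforms numbered 33 at an adjusted p of 0.05 and 17 with DESeq2, and 0 under the other alternatives and without any library. The difference in library share was -0.014 percentage points without the ribosomal RNA overlapping genes and Malat1, a setting not planned beforehand (exact permutation p = 0.0286). For all lincRNAs it was -0.866 to 0.102 when a library was left out, so wild-type replicates 2 and 4 decide its size and sign. The log2 fold change of Dhx15 ranged from -1.67 to -1.55. Of the named lincRNA genes, 6 lost their call under at least 1 alternative and 5 gained one, and none changed direction while called. No paired analysis was possible because the labels give the conditions no shared replicate numbers. Low counts limit most of these genes: only 210 of the 456 tested had a mean of at least 50.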

Other observations

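The most abundant lincRNAs differed in how much they varied between replicates. Among the 43 whose mean reached 500 normalized counts, the median coefficient of variation within a condition was 6.43%, and 13 exceeded 10%. Of these 13, 5 passed the test between conditions, against 13 of the other 30. D930016D06Rik had 543.3, 437.2, 588.1 and 733.2 normalized counts in siL-DHX15-LEC, against 477.0, 767.6, 661.0 and 640.4 in wild-type LEC. Gm37494 had 759.0, 770.2, 930.4 and 1107 in siL-DHX15-LEC, against 910.8, 1396, 1269 and 1269 in wild-type LEC. In both genes, and in Malat1, Mir17hg, Ftx and 1700020I14Rik, siL-DHX15-LEC replicate 4 was the highest silenced library and wild-type replicate 1 the lowest wild-type library. Wild-type replicate 2 was the lowest for the ribosomal RNA overlapping gene Gm42418, at 3771799 against 6162294 to 7598768 in the other wild-type libraries. These genes were named after their values were seen, and the cause was not tested.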
